A study of Mus musculus with 15 samples.

Results

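Spleens taken 7 days after removal of 70% of the liver were compared directly with spleens taken 1 day after it, with 3 Clariom S mouse arrays on each day. The comparison took every feature of the array whose identifier starts with TC or TSU, which left 22206 of 28846 deposited features once the array controls were set aside, and it used 6 of the 15 arrays of the series. All mice were C57bl/10 males with no transgene or drug. Those of both days had the resection under isoflurane anesthesia and were killed with CO2, so the groups differ in the time since surgery, and their age is not given in the sources used here. Sham-operated spleens were not analysed here. The 6 arrays of intact mice and the 3 arrays of day 3 did not enter the main fit. Intact arrays are given as levels beside those of the days, were compared with each other and entered an alternative fit. Those of day 3 entered alternative fits, and all 15 arrays set which feature stands for a gene. The labels number the 3 spleens of a day as biological replicates, and below the values of a day stand in the order of those numbers. Levels are log2 expression values, and a difference is day 7 minus day 1 on that scale, with its SE from limma.

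After partial hepatectomy the remaining liver cells divide until the liver mass is restored. The spleen drains into the liver through the portal vein. In mice it holds the white pulp, in which T and B cells sit in zones organised by stromal chemokines, and the red pulp, in which macrophages clear old red cells and which can also make red cells and granulocytes. Surgery raises glucocorticoids and acute phase cytokines, and glucocorticoids act on lymphocytes. Bulk RNA of a whole organ cannot tell fewer cells of a type from less RNA per cell, and this holds for each gene group below.

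Array medians ran from 4.74 to 4.89. Pearson's r across features was 0.976 to 0.985 within day 1, 0.971 to 0.980 within day 7 and 0.962 to 0.978 between the days. The top of the scale lay at 19.93 and was reached by 36 features on at least 1 of the 6 arrays, where a difference is a lower bound. The tissue carried spleen markers, with Cd79a of B cells at 11.04 to 14.26 and Spic, the transcription factor of red pulp macrophages, at 10.37 to 13.32, while the hepatocyte gene Alb lay near the array medians, at 4.46 to 5.35. On each day 1 array stood apart from the other two of its day. Replicate 2 of day 1 had the highest mean of the glucocorticoid-induced genes and of the metallothioneins and the lowest mean of the B cell genes. Replicate 2 of day 7 had the highest means of the neutrophil granule genes and stefins and the lowest of the red cell genes. Intact spleens 1 to 3 and 4 to 6 differed in 186 features, and 163 of these had the means of both days nearer to spleens 1 to 3. Of the 186 features, 18.8% differed between the days at least 2-fold with an unadjusted p under 0.05, against 5.49% of all features, and the part of a batch in this was not tested.

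The interleukin 7 receptor gene Il7r, whose product keeps naive T cells alive, and Dusp10, which encodes a phosphatase of the stress kinases p38 and JNK, fell between day 1 and day 7. Il7r had levels of 12.99, 12.63 and 12.01 on day 1 and of 8.60, 8.78 and 8.97 on day 7. Every day 7 spleen was thus at least 3 units below every day 1 spleen, and the intact range of 9.44 to 11.28 lay between the days. Il7r fell by 3.76 ± 0.29 (SE, 13.6-fold, adjusted p = 0.0275 in limma). Dusp10 stood at 8.48, 8.41 and 8.55 on day 1 and at 6.17, 6.31 and 6.35 on day 7, with an intact range of 7.37 to 8.78. Its day 7 spleens lay below all intact and all day 1 spleens, and it fell by 2.20 ± 0.20 (SE, 4.61-fold, adjusted p = 0.0401). These 2 were 0.00901% of the 22206 features, and 0 features were higher on day 7 by this test, where 1246 (5.61%) were higher and 1610 (7.25%) lower at an unadjusted p under 0.05. At an adjusted p under 0.1, 37 features were higher and 101 lower. Leaving out an array ended the call of Il7r for replicate 1 of day 1 or for any of the day 7 replicates, with adjusted p values up to 0.261, and that of Dusp10 for every array but replicate 2 of day 1.

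Because so few features passed, gene groups are described below by a looser rule, a difference of 2-fold or more together with an unadjusted p under 0.05, which was chosen with the result of the adjusted test in view. It took in 519 features that were higher on day 7, which is 2.34% of all, and 701 that were lower, which is 3.16%. The groups of arrays did not overlap for 1787 features with day 7 above (8.05%) and 2150 with day 7 below (9.68%). The median difference over all features was 0.01. None of the genes named from here on passed the adjusted test other than Il7r and Dusp10, so their values are given without a call.

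**Figure D1:**
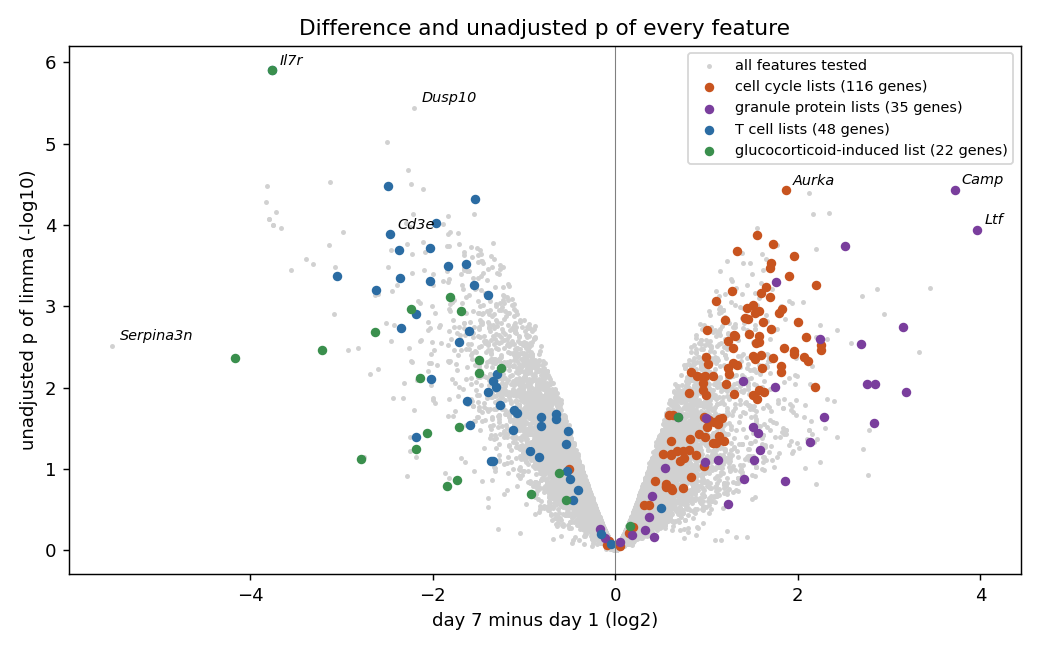
Each point is a feature, with its difference between the days (log2, x axis) against its unadjusted limma p (-log10, y axis), and colours mark genes of 4 sets of lists. Il7r, drawn in the glucocorticoid colour although the T cell list holds it too, and Dusp10 stand highest, the cell cycle and granule genes lie mostly on the right and the T cell genes on the left.

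After those 2 genes the smallest p values among the lower genes belonged to secreted proteins, T cell regulators and vessel genes. Clu, which encodes the extracellular chaperone clusterin, had levels of 15.99, 15.32 and 15.49 on day 1 and of 13.23, 12.86 and 13.22 on day 7. Selenop, the gene of the plasma selenium carrier, had 17.21, 17.84 and 16.35 on day 1 and 14.04, 14.18 and 13.81 on day 7. In both genes the arrays of the days were more than 2 units apart, and the intact ranges of 14.48 to 15.69 for Clu and 13.01 to 15.36 for Selenop reached into day 1 for Clu and held the day 7 levels for Selenop. The differences were -2.50 ± 0.25 for Clu and -3.13 ± 0.37 for Selenop (SE, adjusted p = 0.0696 and 0.0739). Lef1, a transcription factor of T cells that acts with beta-catenin, had -2.49, Stat4, which relays interleukin 12 signals, had -2.11, and Icos, a costimulatory receptor of activated T cells, had -1.54. Plvap, which encodes the diaphragm protein of fenestrated endothelium, differed by -1.54, Sparcl1, a matrix protein gene of vessels and reticular stroma, by -2.22, and the stromal chemokine gene Cxcl12 by -2.29. Gdpd2, Tmem255a and Cped1 differed by -2.27, -2.24 and -1.83, and the remaining 2 places among the 15 lowest p values belonged to the Ccl21 copies Gm10591 and Gm13304.

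Granule protein genes of neutrophils and genes of cell division led the other side. Camp, the gene of the antimicrobial peptide cathelicidin, had levels of 9.999, 10.26 and 10.96 on day 1 and of 13.78, 15.11 and 13.48 on day 7. Ltf, which encodes lactoferrin, had 10.12, 9.05 and 11.33 on day 1 and 14.00, 14.81 and 13.60 on day 7. All day 7 spleens were above all day 1 spleens, with replicate 2 of day 7 the highest for both, and intact spleens reached from 9.65 to 14.02 for Camp and from 10.12 to 13.33 for Ltf. The differences of Camp and Ltf were 3.72 ± 0.45 and 3.97 ± 0.56 (SE, 13.2-fold and 15.6-fold, adjusted p = 0.0739 and 0.0788). Fcnb, the gene of ficolin B, had 2.51. The mitotic kinase gene Aurka, with 7.54, 7.26 and 7.83 on day 1 and 9.33, 9.39 and 9.53 on day 7, varied little within a day and differed by 1.87 ± 0.23 (SE, adjusted p = 0.0739). Cdca5, which encodes sororin of the cohesin complex, and Pclaf, which binds the replication clamp PCNA, had 2.12 and 2.34. The kinesin genes Kif4 and Kif23 had 1.73 and 1.33, Racgap1, which acts with Kif23 in the central spindle, 1.55, the spindle checkpoint kinase gene Bub1b 1.95, the centromere gene Cenpi 1.77 and Mms22l, which helps repair stalled replication forks, 1.39. Shcbp1, Ptgr1 and Ugt8a completed the 15 with 1.61, 2.20 and 2.16, and their adjusted p values lay between 0.0739 and 0.0829. Ugt8a was itself uneven in intact spleens, with 7.93 as the mean of spleens 1 to 3 and 4.69 as that of spleens 4 to 6.

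**Figure D2:**
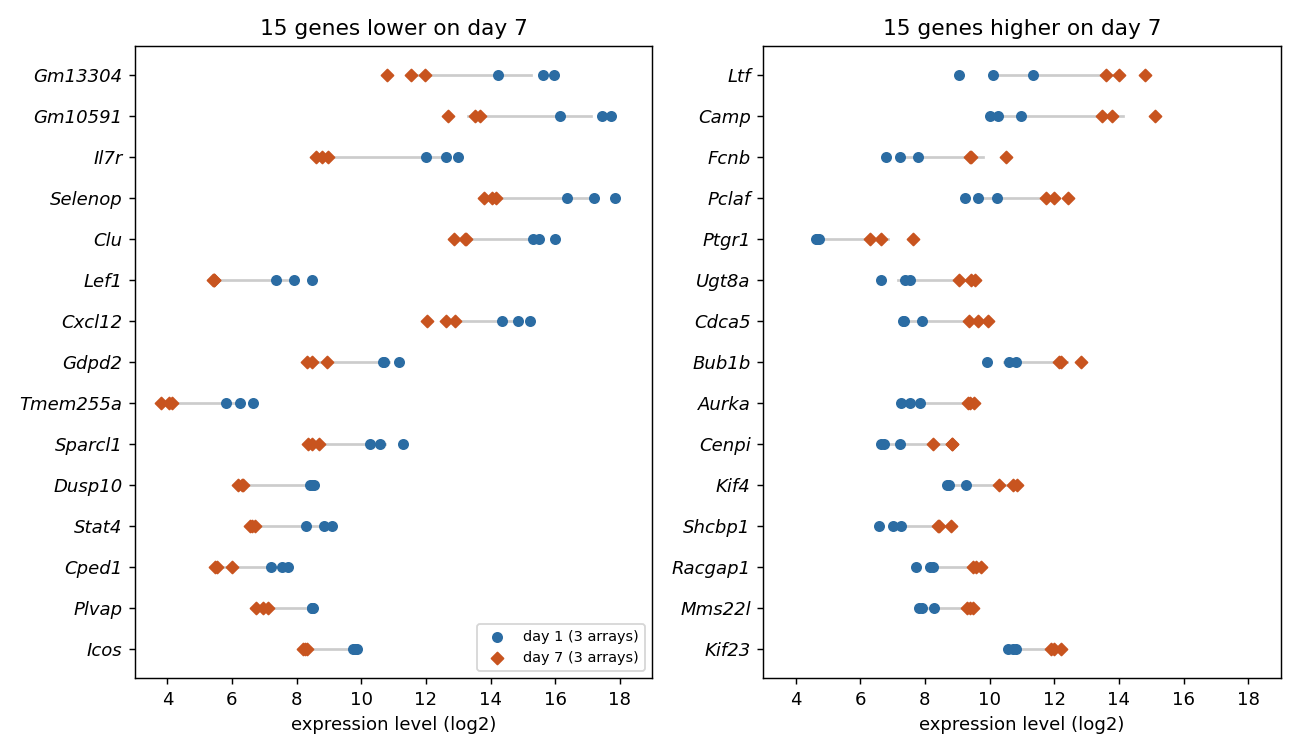
Log2 levels (x axis) of the 15 genes with the smallest p values on each side, with blue circles for the 3 day 1 spleens and orange diamonds for the 3 day 7 spleens and a grey line between the means. The days do not overlap for any of the 30 genes, and only Il7r and Dusp10 passed the adjusted test.

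Of 59 lists of genes, those for cell division, neutrophil granules and red cells had the highest medians and those for glucocorticoid-induced genes, T cells, the proteins that the study stained or sorted, red pulp macrophages and MHC class II the lowest. The medians ran from 1.76 for the primary granule genes to -1.77 for the glucocorticoid-induced genes, with the 4 short lists taken from the study aside. The lists share genes, Il7r for one standing in 3 of them, and the lists are described by counts and medians with no test. Every count past the looser rule below is to be read beside 2.34% of all features for higher and 3.16% for lower. Counts without overlap stand beside 8.05% for day 7 above and 9.68% for day 7 below.

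**Figure D3:**
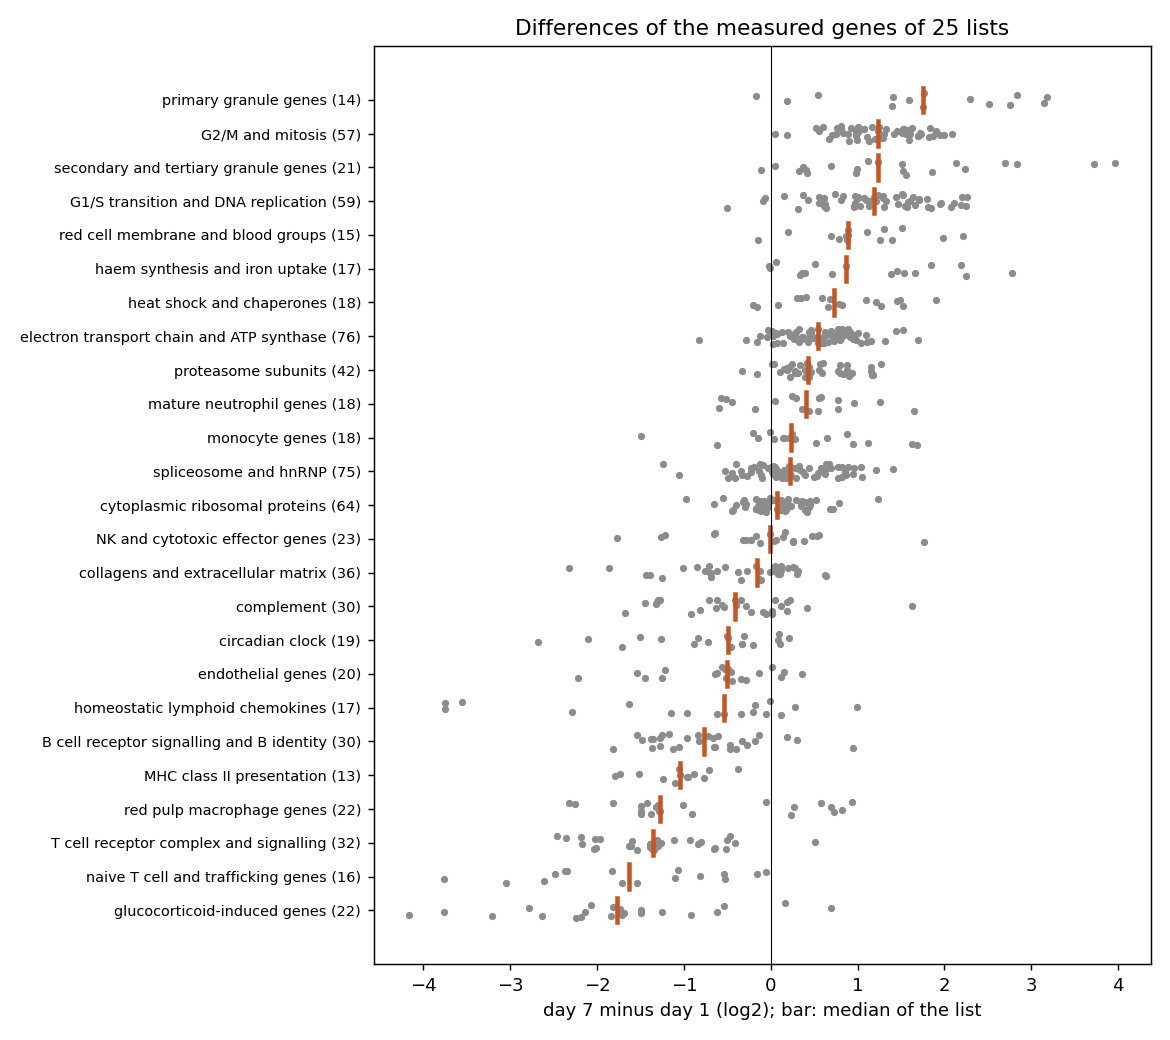
Differences between day 7 and day 1 (log2, x axis) of the measured genes of 25 lists, with 1 grey point per gene, the number of genes in parentheses and the median as an orange bar. All 57 genes of the G2/M list lie right of 0 and all 16 genes of the naive T cell list left of it, while ribosomal protein and NK cell genes centre near 0.

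Genes of mitosis were higher on day 7 as a group. All 57 measured genes of the G2/M and mitosis list had a positive difference, against 51.3% of all features, 37 were past the looser rule, against 2.34% of all features, and 44 did not overlap, against 8.05%. Their median was 1.24. Between the arrays the mean level of the list was 8.72, 9.06 and 9.41 on day 1 and 10.43, 9.98 and 10.46 on day 7. It was 9.66 to 10.10 in intact spleens 1 to 3 and 8.66 to 9.86 in intact spleens 4 to 6. All day 1 means thus lay below those of intact spleens 1 to 3, but not below all of spleens 4 to 6. The smallest p values belonged to Aurka, Racgap1, Kif4 and Kif23, given above. The list for the G1/S transition and DNA replication had 56 of 59 genes higher, 37 of them past the rule and 0 lower past it, with a median of 1.19. Rrm2, a subunit of ribonucleotide reductase, had levels of 11.95, 12.12 and 12.58 on day 1 and 14.31, 13.55 and 13.90 on day 7. Cdc45, a part of the replicative helicase, differed by 2.20, the cyclin A2 gene Ccna2 by 1.66 and the DNA polymerase delta gene Pold1 by 1.10. Without any 1 array, 32 to 44 of the G2/M genes and 31 to 41 of the G1/S genes were past the rule. In a fit over the 9 arrays of operated mice, which has another estimate of the spread, 19 and 22 were.

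The 8 cell cycle genes that the study chose on these samples were all higher by the looser rule, with a median of 1.84, and their selection makes this no independent evidence of direction. In the fit over 15 arrays 6 of the 8 were past the rule, and in that over the 9 arrays of operated mice 2 were. Ccne2 and Ccne1, the cyclins that drive entry into S phase, differed by 2.26 and 2.19, Cdc6 and Mcm2, which license replication origins, by 2.25 and 1.95, and the polo-like kinase gene Plk1 by 1.72. Ccnb2, a mitotic cyclin, had 1.31 and Rbl1, a pocket protein that represses E2F targets, 1.30. Ccne1 was the one among them with overlapping arrays, at 9.84, 8.89 and 10.99 on day 1 and 12.36, 10.90 and 13.05 on day 7. Mki67, the gene of the stained proliferation antigen, did not follow this pattern, with 18.81, 19.50 and 19.21 on day 1 and 19.57, 18.92 and 19.62 on day 7 and a difference of 0.19 ± 0.29 (SE). Its days overlapped, and its levels lie close to the upper end of the scale.

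Genes expressed late in the cell cycle are known to share promoter elements, the cell cycle genes homology region (CHR, core TTTGAA) bound by the DREAM and MuvB complexes and CCAAT boxes bound by NF-Y, and genes of S phase share E2F sites, of which TTTCCCGC and TTTGGCGC are common forms. These letters were searched on both strands of the 300 bases around the RefSeq start (250 before and 50 after, GRCm38.p6) of the 13127 measured genes with exactly 1 promoter entry. TTTGAA was present in 32 of 45 G2/M promoters (71.1%) against 16.4% of all promoters, and CCAAT in 32 of 45 (71.1%) against 39.4%. Both stood in 28 promoters (62.2%, against 6.80% of all). Of 40 G1/S promoters, 13 (32.5%) held one of the E2F forms, against 2.19% of all, and 5 (12.5%) held TTTGAA. Among the 340 genes past the looser rule and higher on day 7 the share with TTTGAA was 25% (85 genes), and among the 359 that were lower it was 10.9% (39 genes). These shares describe the letters and name no bound factor. The promoters of 6 G2/M genes are printed from 120 bases before to 30 bases after the start, 5′ to 3′ on the strand of the gene, since they carry the hexamer beside the start and, for all but Ncapg, a CCAAT box near it. They are the members with the smallest p values that hold TTTGAA in this stretch, and capitals mark TTTGAA and CCAAT on either strand (TTCAAA and ATTGG when reversed), which overlap in Cdca8.
Racgap1 (chr15:99651627-99651776, minus strand): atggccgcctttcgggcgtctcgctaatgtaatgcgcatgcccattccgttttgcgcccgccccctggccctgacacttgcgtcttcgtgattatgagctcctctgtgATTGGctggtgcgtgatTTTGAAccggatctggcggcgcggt
Kif4 (chrX:100625945-100626094, plus strand): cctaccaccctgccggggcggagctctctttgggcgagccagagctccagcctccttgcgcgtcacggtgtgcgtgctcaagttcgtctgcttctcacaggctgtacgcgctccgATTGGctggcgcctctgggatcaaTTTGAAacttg
Kif23 (chr9:61946770-61946919, minus strand): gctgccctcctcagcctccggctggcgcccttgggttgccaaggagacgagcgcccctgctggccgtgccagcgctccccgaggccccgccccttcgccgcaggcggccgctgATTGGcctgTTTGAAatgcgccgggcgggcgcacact
Cdca8 (chr4:124936888-124937037, minus strand): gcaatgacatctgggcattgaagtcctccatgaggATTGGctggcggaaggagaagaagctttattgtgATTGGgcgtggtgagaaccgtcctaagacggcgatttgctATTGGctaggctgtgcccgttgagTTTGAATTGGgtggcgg
Ncapg (chr5:45669805-45669954, plus strand): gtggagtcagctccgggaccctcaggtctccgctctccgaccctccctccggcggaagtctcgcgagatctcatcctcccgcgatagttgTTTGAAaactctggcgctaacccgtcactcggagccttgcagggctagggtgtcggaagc
Cdc20 (chr4:118437314-118437463, minus strand): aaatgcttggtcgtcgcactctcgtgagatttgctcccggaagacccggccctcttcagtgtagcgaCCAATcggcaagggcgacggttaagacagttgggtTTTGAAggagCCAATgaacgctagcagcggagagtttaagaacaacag
For the G1/S list the same stretch is printed for 3 members chosen in the same way, with the E2F forms on either strand and CCAAT in capitals, to set these promoters beside those above.
Cdc25a (chr9:109875459-109875608, plus strand): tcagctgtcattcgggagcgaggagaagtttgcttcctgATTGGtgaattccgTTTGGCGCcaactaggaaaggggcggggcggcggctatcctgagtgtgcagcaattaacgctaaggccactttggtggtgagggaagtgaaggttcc
Pole2 (chr12:69228161-69228310, minus strand): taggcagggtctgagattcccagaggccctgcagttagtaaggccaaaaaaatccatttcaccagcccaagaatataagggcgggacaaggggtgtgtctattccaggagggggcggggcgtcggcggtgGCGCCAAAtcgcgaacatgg
Mcm6 (chr1:128359676-128359825, minus strand): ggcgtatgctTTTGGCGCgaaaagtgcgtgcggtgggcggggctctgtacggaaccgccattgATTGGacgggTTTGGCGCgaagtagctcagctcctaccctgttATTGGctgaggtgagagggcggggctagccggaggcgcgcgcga
In this stretch TTTGAA starts 6 bases into the transcript in Racgap1, 3 in Kif23, 20 in Kif4 and 14 in Cdca8, counted from 1 at the start, and at positions -30 and -18 in Ncapg and Cdc20. The differences of Cdca8, which encodes borealin of the chromosomal passenger complex, of the condensin gene Ncapg and of Cdc20, the activator of the anaphase-promoting complex, were 1.28, 1.60 and 1.42. The phosphatase gene Cdc25a had 1.44, the DNA polymerase epsilon subunit gene Pole2 1.30 and the helicase gene Mcm6 1.53.

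**Figure D4:**
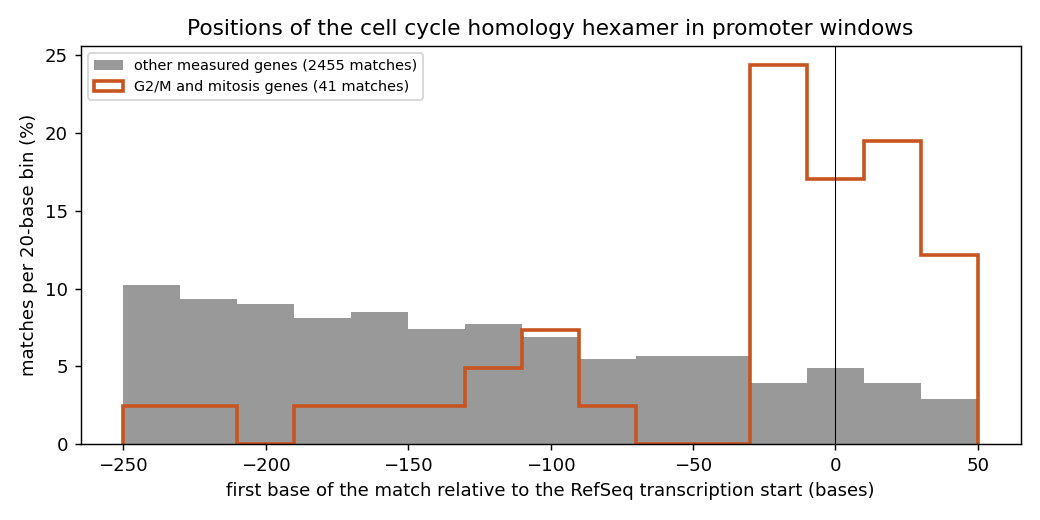
Position of each TTTGAA match relative to the RefSeq start (x axis, bases) as a percentage of the matches per 20-base bin (y axis), with the orange line for 41 matches in G2/M promoters and grey for 2455 matches in other measured genes. Of the G2/M matches 73.2% lie within 50 bases of the start, against 21.4% of the others.

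Genes of neutrophil granule proteins, which neutrophil precursors transcribe as they mature, were higher on day 7. Of 14 primary granule genes, which the earliest precursors express, 13 were higher and 9 past the looser rule, with a median of 1.76. Of 21 secondary and tertiary granule genes 20 were higher and 8 past it, with a median of 1.23. Of 18 genes of mature neutrophils 13 were higher and 1 past it, with a median of 0.40. Elane, the neutrophil elastase gene, had levels of 12.41, 13.62 and 13.24 on day 1 and of 15.85, 17.88 and 14.99 on day 7, above the intact range of 10.36 to 14.40. It differed by 3.15 ± 0.69 (SE, 8.86-fold, adjusted p = 0.131). Prtn3, the proteinase 3 gene, had 10.58, 11.64 and 10.60 and then 12.84, 15.78 and 12.48, and Ctsg, the cathepsin G gene, 10.32, 12.25 and 11.32 and then 13.09, 16.91 and 13.44. In each of these genes replicate 2 was the highest spleen of both days. Their differences were 2.76 ± 0.81 and 3.18 ± 0.97 (SE), and those of Nkg7 and Igsf6 1.76 and 1.40. The myeloperoxidase gene Mpo had a difference of 2.29.

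In the secondary granule list Camp and Ltf were followed by Trem3 with 2.24, Wfdc21 with 2.69 and Pglyrp1, the gene of a peptidoglycan recognition protein, with 2.84. Ngp was at the upper end of the scale on most arrays, with a difference of 0.05. Of the mature neutrophil genes Csf3r, the receptor of the granulocyte growth factor G-CSF, differed by 1.65, S100a9 and S100a8 by 0.78 each and Il1f9 by 1.26. The chemokine receptor gene Cxcr2, which mature neutrophils carry, had 8.17, 10.11 and 9.13 on day 1 and 9.44, 11.58 and 9.23 on day 7, so its days overlapped. Without replicate 2 of day 7 the median of the primary granule genes was 1.22, with 7 genes past the rule, that of the secondary and tertiary granule genes 0.72, with 5 (5 also without replicate 1 of day 1), and that of the mature neutrophil genes -0.15. Camp then differed by 3.23, Elane by 2.33, Ctsg by 1.97, Prtn3 by 1.72, Pglyrp1 by 1.71 and Mpo by 1.33. Stefin genes moved with these on that array and are given below.

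Genes of red cell precursors were higher on 2 of the 3 day 7 spleens. The haem synthesis and iron uptake list, with 15 of 17 genes higher, 6 past the rule and a median of 0.87, had mean levels of 10.13, 9.95 and 10.79 on day 1 and 11.83, 10.21 and 12.05 on day 7. Replicate 2 of day 7 thus lay among the day 1 spleens, and without it the median was 1.68 with 10 genes past the rule. Without replicate 1 or replicate 3 of day 7 it was 0.55 or 0.54 with 1 gene past the rule, without replicate 1 or replicate 2 of day 1 there were 2 or 3 such genes, and in the fit over the 9 arrays of operated mice 0. Tfrc, the transferrin receptor gene, had levels of 13.66, 13.30 and 14.13 on day 1 and 16.44, 14.68 and 16.57 on day 7 and differed by 2.20 ± 0.50 (SE, adjusted p = 0.139). Ppox, an enzyme late in haem synthesis, differed by 1.85, Tmem14c, a mitochondrial porphyrin transporter, by 1.54 and Steap3, a ferric reductase, by 1.66. Alas2, the first enzyme of erythroid haem synthesis, had only 0.39, with overlapping days. For the red cell membrane and blood group genes 14 of 15 were higher and 2 past the rule, with a median of 0.89, and 13 past it with a median of 1.79 without replicate 2 of day 7. None was past it without replicate 1 or replicate 3 of day 7, without replicate 1 or replicate 2 of day 1 or in the fits over 9 or 15 arrays. Kel and Rhd, genes of the Kell and Rh blood groups, differed by 1.99 and 2.21 with overlapping days, Xk by 0.89 and Tmod1 by 1.31. The erythroid transcription factor genes Gata1 and Klf1 had 1.30 and 1.64, and the list of erythroid regulators had 1 gene past the rule on each side.

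Genes of mitochondria, protein turnover and one-carbon metabolism were modestly higher. The electron transport chain and ATP synthase list had 69 of 76 genes higher, 9 past the rule, 31 without overlap and a median of 0.55. Ndufs6 and Ndufb2 of complex I differed by 1.44 and 1.69, and Atp5o and Atp5k of the ATP synthase by 1.53 and 1.11. For the proteasome 40 of 42 subunit genes were higher and 5 past the rule, with a median of 0.43. Without replicate 3 of day 1 the counts past the rule were 18 for the electron transport chain and 9 for the proteasome, and without any other array they were 8 to 13 and 4 to 7. Psmd2, a subunit of its regulatory particle, had a small spread, with levels of 11.27, 11.09 and 11.29 on day 1 and 12.40, 12.35 and 12.34 on day 7 and a difference of 1.15 ± 0.19 (SE, adjusted p = 0.0853). Psmc3, Psma7 and Psmc4 had 1.27, 1.16 and 0.83. The 64 ribosomal protein genes had a median of 0.07, with 1 past the rule, and the 75 spliceosome genes 0.22.

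Single enzymes stood out more than their lists. Mthfd2, a mitochondrial folate enzyme that dividing cells use, had levels of 8.35, 8.67 and 9.03 on day 1 and of 11.83, 10.29 and 12.51 on day 7, a difference of 2.86 ± 0.52 (SE, 7.27-fold, adjusted p = 0.0985). Asns, the asparagine synthetase gene and a target of ATF4, had 10.73, 11.12 and 11.77 and then 14.59, 12.70 and 15.17, with an intact range of 10.15 to 12.90. The days did not overlap in either gene, and replicate 2 was the lowest day 7 spleen. Asns differed by 2.95 ± 0.60 (SE, adjusted p = 0.114), Atf4 itself by 1.48 and the transcription factor genes Cebpg and Atf5 by 1.17 and 0.93. The integrated stress response list had a median of only 0.21 with 4 of 15 genes past the rule. The serine and folate list had 14 of 15 genes higher, 3 past the rule and a median of 0.48, with the thymidylate synthase gene Tyms at 2.07, Shmt2 at 0.98 and Mthfd1 at 1.12. Chaperone genes had a median of 0.73, with 16 of 18 higher and 2 past the rule, and medians of 0.32 without replicate 2 of day 1 and 0.31 without replicate 3 of day 7. The count was 5 without replicate 3 of day 1 or replicate 2 of day 7 and 4 without replicate 1 of day 1. The mitochondrial chaperonin gene Hspd1 differed by 1.48, Calr, a chaperone of the endoplasmic reticulum, by 1.90, Hsp90aa1 by 1.46 and Pdia6 by 1.26.

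T cell genes were lower on day 7. Of 32 genes of the T cell receptor complex and its signaling, 31 were lower, 20 past the looser rule, against 3.16% of all features, and 22 without overlap, against 9.68%, with a median of -1.36. The mean level of the list was 8.86, 8.08 and 8.22 on day 1 and 7.04, 7.10 and 7.06 on day 7, below the intact range of 7.71 to 9.04. All 16 naive T cell and trafficking genes were lower, 11 past the rule and 14 without overlap, with a median of -1.63. Cd3e, a signaling chain of the receptor, had levels of 11.15, 9.69 and 10.23 on day 1 and 7.89, 7.94 and 7.84 on day 7, against 8.58 to 10.61 in intact spleens. The 3 day 7 spleens were nearly equal and below all others, and the difference was -2.46 ± 0.36 (SE, 5.52-fold lower, adjusted p = 0.0788). Tespa1 and Prkch, which act in signaling from the receptor, differed by -1.96 and -2.03.

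Ets1, a lymphocyte transcription factor, had levels of 13.52, 13.16 and 12.16 on day 1, 10.39, 10.91 and 10.43 on day 7 and 11.94 to 13.89 in intact spleens, so that the day 7 spleens lay below both. It differed by -2.37 ± 0.37 (SE). Foxo1, which drives Il7r and homing receptor genes in naive T cells, had -1.83. The coreceptor genes had smaller differences with larger spread, Cd8a with 9.76, 7.53 and 8.91 on day 1 and 7.02, 6.79 and 7.51 on day 7, and Cd4 with 8.70, 8.52 and 7.30 and then 7.21, 6.59 and 6.79. Neither gene overlapped, but the lowest day 1 spleen and the highest day 7 spleen were almost equal in both. Their differences were -1.62 ± 0.52 and -1.31 ± 0.39 (SE, adjusted p = 0.241 and 0.215). Leaving out any 1 array kept 16 to 21 of the 32 receptor genes past the rule. Of 23 NK and cytotoxic genes 3 were lower and 1 higher past the rule, with a median of -0.01. The lower ones included the NK receptor genes Klrk1 and Klrd1 with -1.26 and -1.77, Il2rb had -1.22, and the higher one was Nkg7, which the primary granule list holds too.

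B cell genes were lower in the median, and the size depended on replicates 1 and 2 of day 1. Of 30 genes of B cell identity and receptor signaling 27 were lower, 11 past the rule, with a median of -0.77. The mean level of the list was 10.15, 8.42 and 9.41 on day 1 and 8.61, 8.54 and 8.55 on day 7, so that replicate 2 of day 1 was as low as the day 7 spleens. Without it, 16 genes were past the rule with a median of -1.31, and without replicate 1 of day 1 there were 4 with a median of -0.42. Without replicate 1 of day 7, and in the fit over the 9 arrays of operated mice, 6 were past the rule. Blk, a kinase of the B cell receptor pathway, had levels of 9.45, 9.02 and 9.42 on day 1 and 7.65, 7.76 and 8.05 on day 7 and differed by -1.48 ± 0.23 (SE, adjusted p = 0.0829). The B lineage transcription factor gene Ebf1 had -1.82, the transcriptional coactivator gene Pou2af1 -1.25 and Tnfrsf13c, the receptor of the survival factor BAFF, -1.35. Cd79a, a chain of the B cell receptor, differed by -1.54 ± 0.56, and Ms4a1, which encodes CD20, by -0.65 ± 0.86 (SE), with 10.15, 6.41 and 8.88 on day 1 and 7.67, 7.15 and 8.68 on day 7.

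All 13 genes of MHC class II presentation were lower, 6 past the rule, with a median of -1.05, and 11 past it with a median of -1.52 without replicate 2 of day 1, but 2 with a median of -0.67 without replicate 1 of day 1. H2-Aa, a chain of the class II molecule itself, had levels of 17.43, 16.30 and 16.77 on day 1 and 15.53, 14.87 and 14.73 on day 7 and differed by -1.79 ± 0.35 (SE, 3.46-fold lower, adjusted p = 0.111). The thiol reductase gene Ifi30 had -1.73, the cathepsin S gene Ctss -0.96 and H2-DMa, a chain of the peptide editor of class II, -1.25. H2-Ab1, the beta chain beside H2-Aa, differed by -1.10. The lists for plasma cells (median 0.35, 14 genes), monocytes (0.23, 18 genes), germinal centres (-0.33, 12 genes) and dendritic cells (-0.34, 18 genes) had 0 to 2 genes past the rule on either side.

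Macrophage genes split. Of 22 red pulp macrophage genes 11 were lower past the rule and 0 higher, with 7 on the higher side and a median of -1.28, or -0.86 without replicate 2 of day 1. With 1 array left out in turn, 8 to 13 were lower and 0 to 3 higher past it. The mean level of the list overlapped between the days, at 10.58, 10.14 and 9.69 on day 1 and 9.51, 8.93 and 9.71 on day 7. Vcam1, the adhesion molecule with which these cells and stroma hold other cells, had levels of 14.98, 16.55 and 14.33 on day 1 and 13.04, 12.53 and 13.51 on day 7, with 12.35 to 13.97 in intact spleens. Only the day 1 spleens lay above the intact range, and the difference was -2.26 ± 0.54 (SE, adjusted p = 0.152). Mertk, a receptor for dying cells, differed by -1.81, Slc11a1, a metal transporter of phagosomes, by -1.38, and Csf1r, the receptor for the macrophage growth factor that the study sorted as CD115, by -1.49 ± 0.36 (SE). Csf1, the gene of that growth factor, had -1.35. The scavenger receptor gene Cd163 and the costimulatory gene Cd86 had -1.50 and -1.58, and Mrc1, which encodes CD206, had -2.33 with overlapping days. Spic had -1.32 with overlapping days. On the other side lay Adgre1, a surface receptor gene of mature macrophages, with 7.85, 6.69 and 7.12 on day 1 and 8.03, 7.31 and 8.50 on day 7, a difference of 0.72 ± 0.39 (SE), and Cd5l, a secreted macrophage protein gene, with 0.82. Of the other proteins that the study stained or sorted, Ptprc, the gene of CD45, had -1.37, Cd1d1 -0.59, and Ly6c1 and Ly6c2 0.25 and 0.65.

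Of 30 complement genes 21 were lower, 5 past the rule (8 without replicate 3 of day 1), with a median of -0.41. Serping1, the C1 inhibitor gene, had levels of 10.11, 9.90 and 9.30 on day 1 and 8.64, 7.96 and 7.66 on day 7 and differed by -1.68 ± 0.33 (SE, adjusted p = 0.111). The C4 genes C4b and C4a, which are near-identical and whose probes may take up each other's transcripts, had -1.45 and -1.32, and C1qa -1.29. All 5 measured genes of the complement and coagulation group that the study chose on these samples were lower, which again is no independent evidence of direction. Of these, 3 were past the rule, Serping1, C1qa and Tfpi, the tissue factor pathway inhibitor gene, at -1.66. C1qb at -1.27 and C6 at -1.32 were not past it. Without replicate 1 or replicate 2 of day 1, 2 were past the rule, and without replicate 3 of day 1 all 5.

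Stromal and vessel genes of the white and red pulp were lower in part. The lymphoid chemokine CCL21, which draws naive T cells and dendritic cells into the T cell zone, is encoded in mice by several near-identical copies on chromosome 4. The feature of Ccl21a had levels of 15.10, 12.91 and 14.42 on day 1 and 11.27, 10.82 and 9.69 on day 7, with 11.73 to 13.37 in intact spleens. All day 7 spleens were below the intact range, and 2 of the day 1 spleens above it. Differences were -3.55 ± 0.60 for Ccl21a, -3.75 ± 0.52 for Ccl21b and for Ccl21c, -3.82 for Gm10591 and -3.83 for Gm13304 (SE, adjusted p = 0.0739 to 0.0853). Features of Ccl21b and Ccl21c carry the same value on every array, and RefSeq gives Ccl21b and Ccl21c as synonyms of Gm10591 and Gm13304, so that these rows count as 1 uncertain measurement. Ccl19, the other ligand of the same receptor, had 5.40, 4.17 and 6.24 on day 1 and 5.94, 4.79 and 5.91 on day 7, a difference of 0.27 ± 0.54 (SE). Cxcl13, the chemokine of B cell follicles, had -0.18 with overlapping days.

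Cxcl12, which holds blood progenitors and plasma cells in their niches, had levels of 15.23, 14.86 and 14.37 on day 1 and 12.04, 12.91 and 12.63 on day 7 and differed by -2.29 ± 0.32 (SE, 4.90-fold lower, adjusted p = 0.0788). Its scavenger receptor gene Ackr3 had -1.63. The homeostatic chemokine list as a whole, with the Ccl21 copies in it, had 5 of 17 genes lower past the rule and a median of -0.54. The 5 include those copies, which stand for 1 uncertain measurement. Il7, the ligand of the Il7r product and a stromal cytokine, had low levels of 5.74, 5.55 and 6.26 on day 1 and 4.67, 3.82 and 4.01 on day 7, a difference of -1.68 ± 0.30 (SE, adjusted p = 0.0976). The day 7 levels of Il7 lay below the array medians, where small signals limit a difference. Of 20 endothelial genes 16 were lower and 5 past the rule, with a median of -0.51. Beside Plvap these included the tight junction gene Cldn5 with -1.45, Stab2, a scavenger receptor of sinus endothelium, with -2.22 and Pecam1 with -1.22. Of 36 collagen and matrix genes 3 were lower past the rule (7 without replicate 1 of day 1 and 5 without replicate 3), with a median of -0.16, the protease inhibitor gene Timp2 having -1.44 and the decorin gene Dcn -2.32. Sparc, a matrix protein gene that the study names, had 0.08.

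Genes that glucocorticoids induce had the lowest median. Of 22 such genes 20 were lower, 13 past the rule, against 3.16% of all features, and 12 without overlap, against 9.68%. Their median was -1.77, or -1.06 without replicate 2 of day 1. Il7r is 1 of them. Errfi1, a feedback inhibitor of the EGF receptor, had levels of 8.33, 12.66 and 9.70 on day 1 and 4.68, 7.05 and 6.47 on day 7, with an intact range of 5.63 to 6.83. The day 1 spleens were all above the intact range, and replicate 2 was the highest of each day. Errfi1 differed by -4.17 ± 1.06 (SE, 17.95-fold lower, adjusted p = 0.167), and by -2.95 without replicate 2 of day 1. Tsc22d3, which encodes the leucine zipper protein GILZ, had 10.29, 12.73 and 11.05 and then 8.48, 9.33 and 8.37. Ddit4, an inhibitor of mTORC1, had 7.32, 9.14 and 7.98 and then 5.79, 6.32 and 5.60. In both, replicate 2 was again the highest spleen of each day, and the days did not overlap. Tsc22d3 and Ddit4 differed by -2.63 ± 0.59 and -2.24 ± 0.45 (SE), Pik3ip1, a brake on PI3 kinase, by -3.21 and Pdk4, which limits glucose oxidation, by -1.69. Fkbp5, a cochaperone of the receptor, had overlapping days, at 13.38, 16.23 and 14.53 and then 11.08, 14.64 and 11.85, and a difference of -2.19 ± 0.98 (SE).

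The clock genes had a median of -0.49, with 15 of 19 lower and 5 past the rule, or 2 without replicate 3 of day 7. Nr1d2, a nuclear receptor that represses Arntl, had levels of 9.74, 9.20 and 8.67 on day 1 and 6.99, 7.44 and 6.86 on day 7, and Dbp, an output gene of the clock, had 11.90, 8.59 and 9.37 and then 7.42, 7.06 and 7.32. Neither gene overlapped between the days, with differences of -2.11 ± 0.32 and -2.69 ± 0.74 (SE, adjusted p = 0.0829 and 0.191). Rora, which activates Arntl, and Arntl itself differed by -1.27 and -1.51, and Per1, which glucocorticoids also induce, by -1.71. The methods of the study place every resection in the same part of the morning and give the time of death as a nominal interval after it. The hour of death of each mouse is not given in the sources used here, and its part in these differences was not tested.

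Acute phase genes did not move as one. Serpina3n, a secreted inhibitor of serine proteases and a STAT3 target, had levels of 10.80, 16.01 and 12.57 on day 1 and of 6.78, 9.62 and 6.45 on day 7, with 6.17 to 7.08 in intact spleens. All day 1 spleens were above the intact range, and on day 7 only replicate 2 was. Its difference of -5.51 ± 1.31 (SE, 45.6-fold lower, adjusted p = 0.148) was the lowest of all features, and it was -4.07 without replicate 2 of day 1. Il6st, the gp130 subunit of the interleukin 6 receptor, had -1.84, and Cp, the ceruloplasmin gene, -1.17. Over 34 acute phase and STAT3 genes 4 were lower and 0 higher past the rule, with a median of -0.15. The lower ones numbered 2 without replicate 2 of day 1 and 7 without replicate 2 of day 7. The serpin genes Serpina1b and Serpina1a, near-identical copies that the array may not tell apart, had -1.34 and -0.93, and their intact spleens also differed by set, Serpina1b having a mean of 7.12 for spleens 1 to 3 and of 2.58 for the others.

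The stefin genes Stfa2 and Stfa2l1, near-identical inhibitors of cysteine proteases, showed no order between the days. Stfa2 had levels of 12.02, 15.31 and 13.88 on day 1 and of 9.65, 17.99 and 10.44 on day 7, and intact spleens ran from 3.00 to 11.15. On day 7, replicates 1 and 3 lay below and replicate 2 above every day 1 spleen. Stfa2 differed by -1.04 ± 2.01 and Stfa2l1 by -1.28 ± 2.04 (SE, adjusted p = 0.884 and 0.854), and by -3.69 and -3.96 without replicate 2 of day 7. The metallothionein gene Mt2, which binds zinc, had 12.09, 18.41 and 14.32 on day 1 and 12.22, 12.94 and 11.30 on day 7, all above the intact range of 8.19 to 10.93. Replicate 2 of day 1 was far above the rest, and the difference of -2.79 ± 1.37 became -1.05 without it. Mt1 had -1.74 ± 1.05 (SE), which became -0.38 without that array. Of other genes that the study names, Prg4 with -1.08, the protein kinase A gene Prkacb with -1.39 and the NF-kB inhibitor gene Nfkbia with -1.73 were lower by the looser rule with no overlap. The days overlapped for Ifitm1 at -0.71, the macrophage chemokine genes Ccl9 and Ccl6 at -0.88 and -1.22 and Pik3cg at -0.79. All 8 measured chemokine pathway genes chosen by the study were lower, 6 past the rule, and their choice on these samples is again no independent evidence. Both counts include Ccl21a and Ccl21c, which stand for 1 uncertain measurement.

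**Figure D5:**
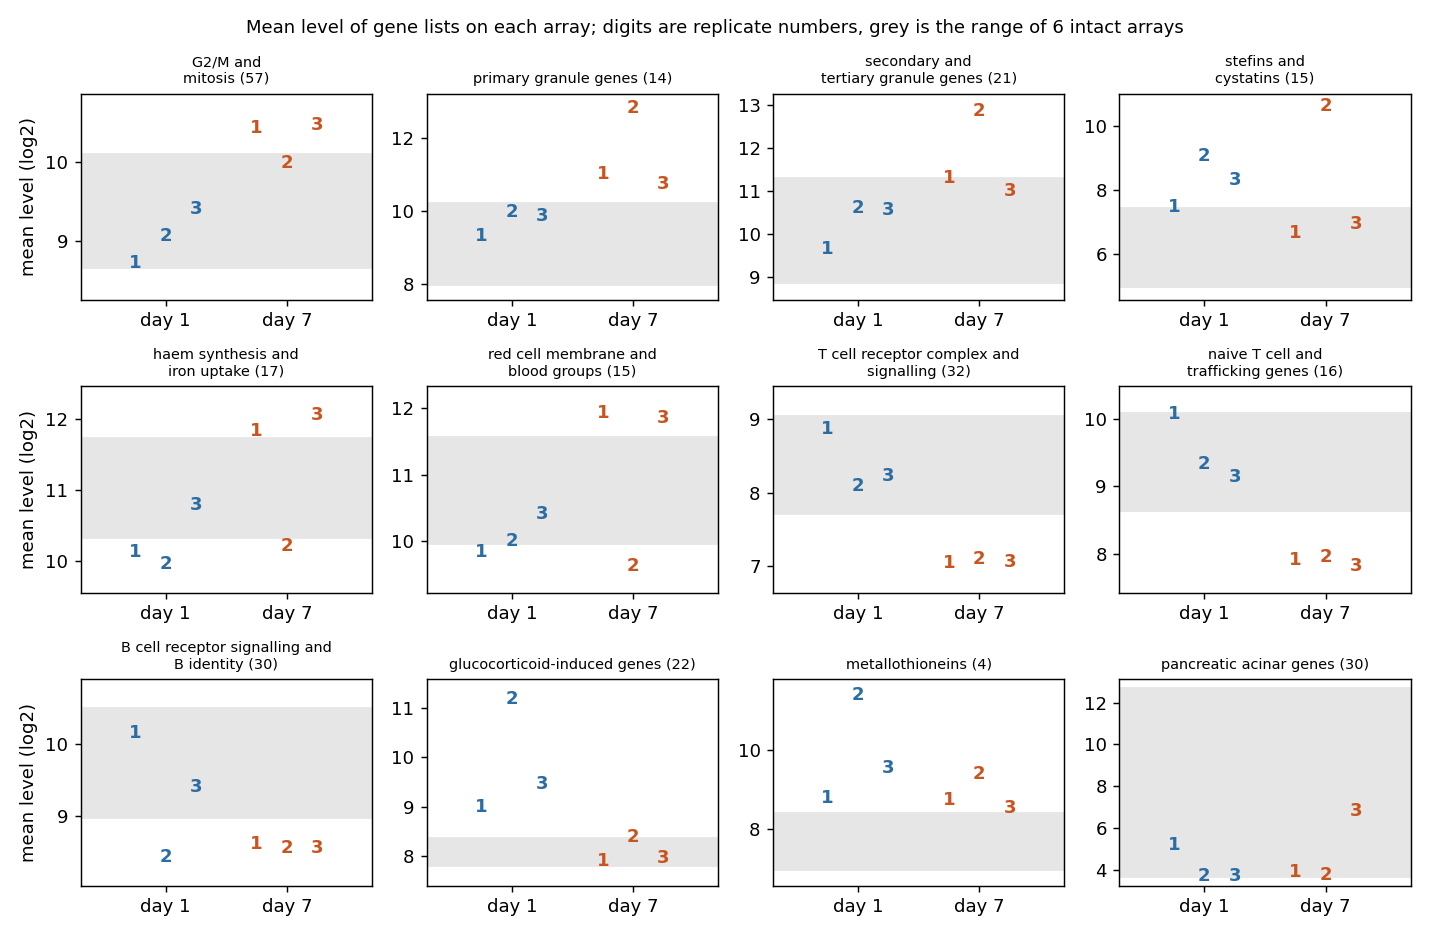
Mean log2 level (y axis) of 12 gene lists on each array, with the digits as replicate numbers (blue for day 1, orange for day 7) and a grey band for the range of the 6 intact arrays. The T cell lists separate the days with little spread on day 7, while replicate 2 of day 7 stands apart for granule, stefin and red cell genes and replicate 2 of day 1 for glucocorticoid, metallothionein and B cell genes.

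Of the lists for neighbouring tissues, those for acinar cells and hepatocytes had overlapping array means, while the mesothelial and adipocyte means were lower on every day 7 spleen than on any day 1 spleen. The 30 acinar genes of the pancreas, which lies against the spleen, had mean levels of 5.20, 3.72 and 3.70 on day 1 and 3.91, 3.73 and 6.81 on day 7 and up to 12.71 in intact spleens. Their median difference of 0.71 became -0.19 without replicate 3 of day 7, and Amy2a5, an amylase gene, reached 16.65 there and 13.49 on replicate 1 of day 1 against 5.65 to 6.33 elsewhere. With the acinar mean as a covariate the G2/M list had a median of 1.23 and the T cell receptor list -1.44. Other lists moved more in that fit, with the chaperone median going from 0.73 to 0.48 and the stefin median from -0.26 to 0.18. The adjusted test then called 0 features. The adipocyte list was highest on replicate 2 of day 1, with a mean of 5.96 against 4.05 to 4.43 on the other arrays, where its Adipoq reached 5.90. Scd1, a fatty acid desaturase gene of that list, differed by -2.92 with no overlap. The mesothelial genes, which mark the capsule, had mean levels of 4.60, 4.55 and 4.74 on day 1 and 4.28, 4.35 and 4.39 on day 7, and the lowest adipocyte mean of day 1 (4.26) nearly met the highest of day 7 (4.25). Hepatocyte and mesothelial genes had medians of 0.01 and -0.25. Their part in the results above was not tested.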

How the data were processed

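Spleen RNA of 3 mice on day 1 and 3 on day 7 after resection was measured on 1 Clariom S array each. The deposited log2 values were made by the authors with RMA in the Transcriptome Analysis Console 4.0.2, that is, by background correction, quantile normalization and summary of probes, so these steps could not be varied, and whether the scale was transformed further is not given in the sources used here. Of 28846 rows, 6640 array controls were left out, no filter on low levels was set, and 19572 of the 22206 features tested carry 1 symbol in the platform annotation. For the 55 genes with several features the brightest over all 15 arrays stands for the gene. Genes of the study without such a feature, Ccnd1 and C3 among them, are not reported here. The authors deposited a value table and no counts, so there is no depth, and precision is limited by the number of arrays.

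The days were compared on the 6 arrays alone with limma 3.58.1 (R 4.3.3) and Benjamini-Hochberg adjustment over all features, with a threshold of 0.05. The steps were tested on simulated data that had independent noise in each feature and no effect shared across an array. That test gives no rate of false or missed calls for the real arrays. The members and gene lists were chosen with earlier results of these data known, the looser rule after the adjusted test was seen. The text names the 15 genes of smallest p on either side, the genes that the study's text names and the proteins it stained or sorted. It also names up to 4 genes of smallest p of each list described. Of the genes set beforehand to define a cell type it names only some, and none for megakaryocytes, NK cells and mesothelium. Genes with overlapping sequence are given as uncertain. Promoter sequences are from RefSeq (GRCm38.p6). Same-numbered spleens of the days come from different mice, and the correlations of their deviations from the day means were -0.12, 0.21 and 0.04, so the numbers do not pair them. Alternatives were a fit over 15 arrays or over the 9 of operated mice, dropping the dimmest 25% of features, a prior that is trended and robust, centring on the median, quantile normalization once more, a block for the replicate number, the acinar mean as a covariate, each array left out in turn and other thresholds. Those applied to the looser rule and to the lists were added after seeing the data.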

Additional observations from a re-analysis of the deposited data

Results flagged for a closer look

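Among the genes whose intact levels are given, 1 intact spleen lay far from the other 5 for 2 of them. Clu reached 15.69 in intact spleen 3, where the next highest level was 14.81, and Serpina3n was 6.17 in intact spleen 4, where the next lowest was 7.00. Chance alone flags about 1 in 20 groups by this test, and the groups of 3 on either day are too small for it. The test took the 6 intact spleens as 1 group, although spleens 1 to 3 and 4 to 6 differed in 186 features.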

How the results depend on the processing

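The adjusted test called 2 features in all, 0 higher and 2 lower. With one array left out in turn the count ran from 0 to 14 in all, from 0 to 0 higher and from 0 to 14 lower, with 14 without replicate 2 of day 1, 2 without replicate 3 of day 1 and 0 without any other. It was 7 (1 higher, 6 lower) in a fit over 4 groups, 1 (1 lower) over the operated groups and 1 (1 lower) once the dimmest 25% of features were dropped. With a prior that is trended and robust it was 51 (8 and 43) and with median centring 24 (5 and 19). The replicate block, whose numbers do not pair the spleens, and the acinar covariate gave 0 (0 lower) each. At an adjusted p under 0.01 it was 0 (0 lower), and at a fold of 2 with an unadjusted p under 0.05 it was 1220 (519 and 701). The cause of these moves was not tested. The totals by the looser rule over all features stayed within 1.5 times their main values under every alternative run, but counts within gene lists did not. The fit over the 9 operated arrays took the G2/M list from 37 to 19 genes past it, G1/S from 37 to 22, the cell cycle genes of the study from 8 to 2, haem synthesis from 6 to 0 and B cells from 11 to 6, with the same medians. Of 181 named genes, 48 had a difference that moved by over 1.5 times when some array was left out, most often replicate 2 of day 1 (27 genes), and 9 with small or uneven differences turned sign. With one array left out in turn they ran from -1.27 to 0.20 for Adipoq, -2.18 to 3.90 for Amy2a5, -0.27 to 0.76 for Ccl19, -0.38 to 0.019 for Cxcl13, -0.16 to 0.56 for Ly6c1, -1.68 to 0.19 for Ms4a1, -0.12 to 0.37 for Sparc, -3.69 to 0.48 for Stfa2 and -3.96 to 0.16 for Stfa2l1. With the acinar covariate Amy2a5 had -1.03 and Sparc -4e-04. Scaling moved the median over all features by at most 0.03. Low signal limits 142 features past the looser rule whose lower day lies below every array median.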
